A study of Homo sapiens with 73 samples.

Results

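The transcripts of 8 developmental genes of muscle, tendon, cartilage, bone and limb were followed through repeated chemotherapy of CHLA-9, an established human line of Ewing sarcoma, a tumour of bone and soft tissue driven by the fusion EWSR1-FLI1. They were MKX, RUNX2, SOX9, PAX7, PAX3, TBX5, MEOX2 and MYH3, taken by symbol as 8 of the 36233 genes in the deposited table. The genes were chosen on results of these data: MKX stood near the top of the comparison of treated with DMSO lineages over all time points, and the list was proposed with that comparison known. The treated-against-DMSO levels are therefore given as a description, without a test, and tests are kept for changes over time and for drug course.

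From 1 untreated parental line, 10 cultures (R1 to R10) were split and grown separately, and each is called a lineage here. Lineages R1 to R7 (49 libraries) received vincristine, doxorubicin and cyclophosphamide (VDC) at odd time points and etoposide with cyclophosphamide (EC) at even ones, for 5 days at a concentration with 70% effect (EC70), and regrew before RNA was taken. Lineages R8 to R10 (23 libraries) received DMSO, the drug solvent, under the same time point numbers, and 1 library came from the parental line. There were 10 time points in 5 cycles. Time point 2 held DMSO libraries only and time point 3 treated libraries only, and each lineage had 6 to 9 libraries. All lineages come from 1 line, so p-values of slopes measure the spread between lineages of that line. Those of the drug course tests measure the spread between libraries after the level of each lineage is taken out.

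These genes mark different branches of the mesenchyme and neural crest. MKX (Mohawk) is a homeobox factor of tendon, RUNX2 the main factor of osteoblast commitment and SOX9 the main factor of cartilage formation. PAX3 and PAX7 are paired-box factors of muscle progenitors and neural crest, and PAX7 is used as a diagnostic marker of Ewing sarcoma. TBX5 patterns the forelimb and heart, MEOX2 acts in somites and limb muscle, and MYH3 encodes the embryonic myosin heavy chain.

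The Ewing sarcoma identity was checked with 10 marker genes. A mean value of at least 10 over the 73 libraries was reached by 9 of them. The exception was CD99, the surface antigen used to diagnose the tumour, whose highest value was 2.31 and whose median was 0.583. CD99 lies in the pseudoautosomal region of the sex chromosomes, and the 7 other genes looked up in that region, among them the housekeeping carrier SLC25A6, had a highest value of 0.0513. CD99 was therefore not read further. MYOD1 and MYOG, which define skeletal muscle, had means under 1, and 1 of 6 muscle, 1 of 6 cartilage cell and 3 of 6 osteoblast markers had a mean of at least 10. None of 6 epithelial and endothelial markers and 1 of 6 blood markers did. All 6 fibroblast markers did, and their summed value was 2432 to 24212 in treated, 1452 to 11326 in DMSO and 1266 in parental cells. COL1A1 alone had 474 to 22349 in treated and 310 to 9355 in DMSO libraries, and 477 in the parental one. PDGFRA barely reached the mean of 10, at 10.2. The depth of the libraries is unknown because the values are quantile-normalized counts.

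EWSR1-FLI1 binds DNA at GGAA repeats. The 250 bases before the start of the paired-box pair PAX7 and PAX3 are shown, because these related genes parted in late DMSO cultures. Both come from RefSeq (GRCh38.p14), written 5′ to 3′ on the strand of the gene, PAX7 at chr1:18630596-18630845 on the plus strand and PAX3 at chr2:222298999-222299248 on the minus strand. Capitals mark GGAA on either strand, which reads TTCC on the other.
PAX7: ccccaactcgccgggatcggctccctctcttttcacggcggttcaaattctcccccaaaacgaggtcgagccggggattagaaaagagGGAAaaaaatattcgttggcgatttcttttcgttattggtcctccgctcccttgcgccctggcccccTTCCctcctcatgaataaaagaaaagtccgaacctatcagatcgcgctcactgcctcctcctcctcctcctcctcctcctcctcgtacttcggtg
PAX3: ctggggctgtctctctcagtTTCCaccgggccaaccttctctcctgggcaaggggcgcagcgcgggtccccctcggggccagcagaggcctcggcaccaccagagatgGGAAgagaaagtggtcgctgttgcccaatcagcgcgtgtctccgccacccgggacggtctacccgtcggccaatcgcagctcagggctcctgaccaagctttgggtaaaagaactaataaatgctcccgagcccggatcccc
Each window held 2 copies of GGAA, and neither held the tandem GGAAGGAA. At least as many GGAA copies were present in 76.5% of the 35116 RefSeq windows of this length, 92.7% held the motif at all and 3.06% held the tandem. These letters are common, and no binding data were measured here. RefSeq windows were matched for 6 of the 8 genes. The MKX window held 5 copies, a number reached by 18.6% of windows, and no tandem.

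MKX had the largest slope over time of the 7 genes tested, in both arms. It lies on chromosome 10 (27672875 to 27746060, minus strand, ENSG00000150051.13). In the treated lineages at time point 1 its quantile-normalized count was 3.57 at the lowest, 17.8 at the median and 55.2 at the highest of 6 libraries, and at time point 3 it was 38.4, 52.5 and 106. At time point 4 the 7 treated libraries ran from 31.9 through a median of 316 to 776. Apart from the 31.9 of R1, every treated library from time point 4 on was at 84.8 or above.

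The later treated values stayed in that range. The lowest, median and highest were 84.8, 185 and 699 at time point 5, 191, 292 and 743 at time point 6, and 211, 459 and 538 at time point 8. At time point 7 the 5 libraries had 176, 188, 220.2, 244 and 296. The 3 libraries of time point 9 had 172 (R4), 351 (R5) and 1239 (R1), and those of time point 10 had 173 (R6), 218 (R5) and 1187 (R2). The R1 and R2 libraries were the highest of the series, the next being 776.

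DMSO lineages began as low and also became high. At time point 1 they had 15.8 (R8), 8.54 (R9) and 9.11 (R10), and at time point 2 they had 8.47, 69.9 and 11.9 in the same order. R8 had 279.7, 122, 198, 205, 333, 218 and 197 from time point 4 to time point 10. R9 had 187, 40.8, 159, 87.8 and 55.8 at time points 4, 5, 6, 8 and 9. R10 had 279, 154, 121, 159.5 and 161 at time points 5, 6, 8, 9 and 10. The parental library, with 46.0, lay above all DMSO libraries of time point 1.

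MKX thus rose in both arms. Its slope was 0.50 ± 0.055 (SE) log2 units per time point over the 7 treated lineages (limma, Benjamini-Hochberg adjusted p = 0.000428) and 0.38 ± 0.084 over the 3 DMSO lineages (adjusted p = 0.0221). All 7 treated and all 3 DMSO lineages had a positive slope. In the treated lineages MKX ranked 52 of 14565 genes by p. The slopes differed by 0.12 ± 0.10 between arms (adjusted p = 0.703), which did not pass the threshold of 0.05. The DMSO call rests on few cultures: it was lost without R9 (adjusted p = 0.0874), without R10 (0.133) and without time point 1 (0.311).

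**Figure D1:**
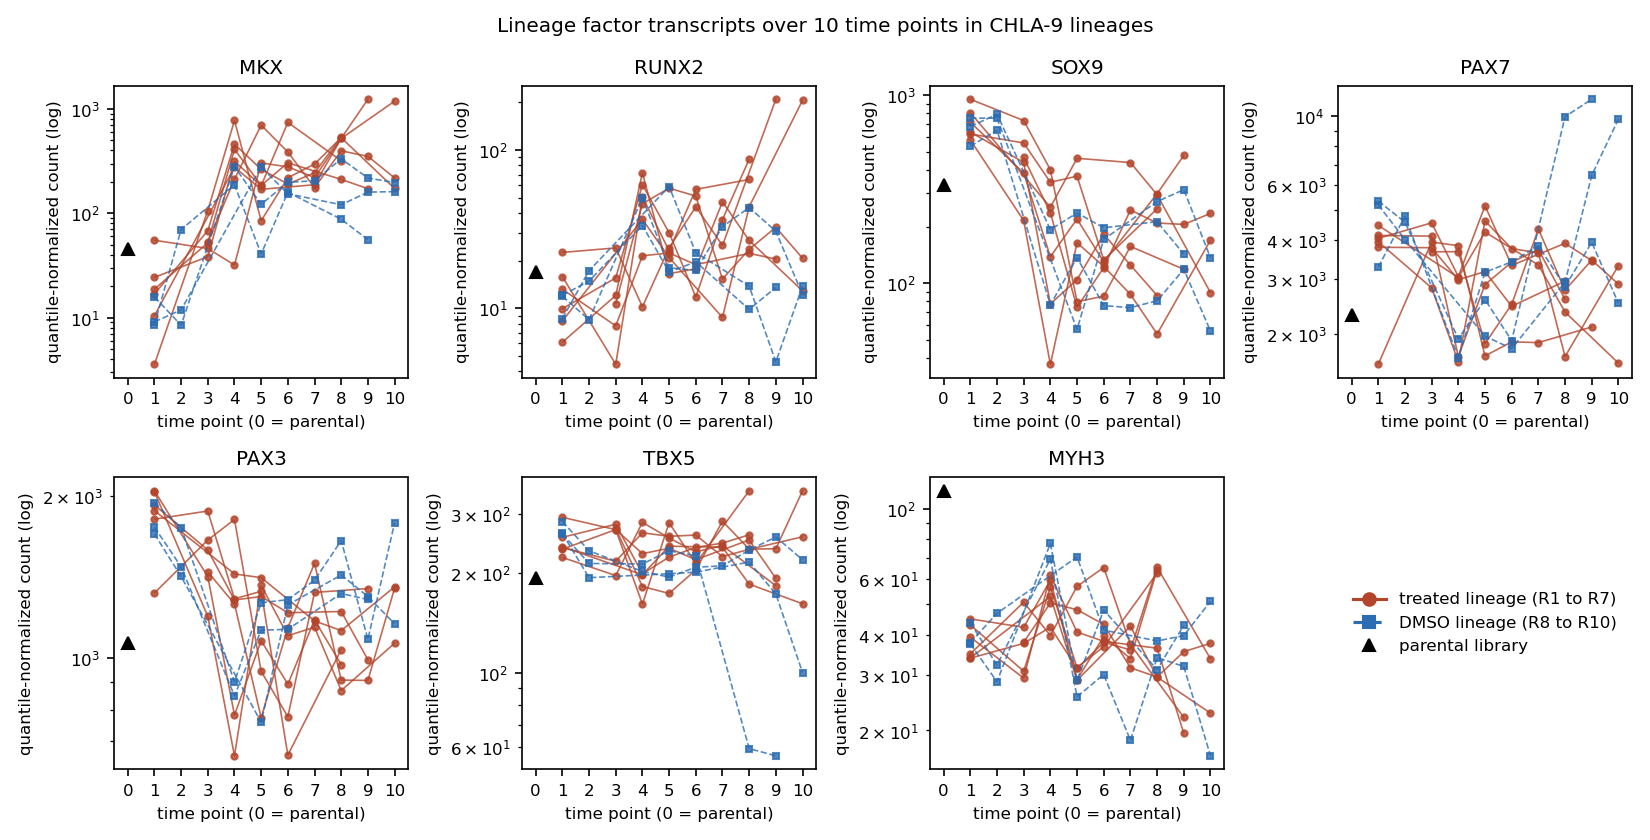
Quantile-normalized counts (log axis) of 7 of the genes against time point, with 1 line per treated lineage (red, solid) or DMSO lineage (blue, dashed) and the parental library at 0 (black triangle). MKX steps up and SOX9 steps down between time points 1 to 3 and 4 to 10 in both arms, and PAX7 reaches 9794 or more, with TBX5 at 100.3 or less, in 3 late DMSO libraries.

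Much of the MKX change lay between time points 1 to 3 and time points 4 to 10. From the mean of time points 1 to 3 to the mean of time points 4 to 10, MKX was higher by 3.27 ± 0.89 log2 (SD, n = 7) in treated lineages, or 9.62-fold. The step was 3.26 ± 1.26 (n = 3), or 9.59-fold, in DMSO lineages. Early libraries were of time points 1 and 3 in treated and 1 and 2 in DMSO lineages. The steps of the 2 arms thus have unlike baselines, here and for the genes below. The share of all genes with such a step was not counted, so the steps are descriptions and not particular to these genes. When only time points 4 to 10 were fitted, a choice made after the step was seen, the slope was 0.15 in treated lineages (adjusted p = 0.40) and -0.090 in DMSO lineages (adjusted p = 0.745).

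RUNX2 (chromosome 6, 45328157 to 45664349, plus strand) was low at the start, with 6.10, 11.6 and 22.5 as lowest, median and highest of the treated libraries of time point 1. It had 10.2, 45.8 and 71.9 at time point 4, 22.2, 35.3 and 87.4 at time point 8, and 20.5 (R4), 32.5 (R5) and 209 (R1) at time point 9. At time point 10 it had 12.9 (R6), 20.7 (R5) and 206 (R2). The 2 highest libraries were those with the highest MKX. DMSO libraries had 8.47 to 17.3 at time points 1 and 2 and 4.59 to 58.7 later, with a later median of 18.0 against 26.8 in treated libraries. The arms overlapped throughout.

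RUNX2 rose in treated lineages by 0.23 ± 0.050 log2 per time point (adjusted p = 0.00542, limma), with a positive slope in 6 of 7 lineages. The DMSO slope was 0.0033 ± 0.076 (adjusted p = 0.979), positive in 1 of 3. The difference of the slopes, 0.23 ± 0.091, had an adjusted p of 0.495, so a difference between arms was not called. Without time point 1 the treated slope was 0.26 and its call was lost (adjusted p = 0.0583). From time points 1 to 3 to time points 4 to 10, RUNX2 was higher by 1.49 ± 0.57 log2 (SD, n = 7) in treated lineages, or 2.80-fold, and by 0.68 ± 0.54 (n = 3), or 1.61-fold, in DMSO lineages, with a positive difference in all 10 lineages. Over time points 4 to 10 only, the slopes were 0.15 in treated lineages (adjusted p = 0.431) and -0.28 in DMSO lineages (adjusted p = 0.286).

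SOX9 (chromosome 17, 72121020 to 72126420, plus strand) ran the other way. Treated libraries had 578, 677 and 951 as lowest, median and highest at time point 1, 215, 452 and 733 at time point 3, and 37.0, 236 and 401 at time point 4. Later treated libraries stayed between 53.6 and 478. The 6 DMSO libraries of time points 1 and 2 had 534 to 791, and the 17 later ones 55.6 to 314. The parental library had 332, below every DMSO library of time points 1 and 2.

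SOX9 fell in both arms, by 0.23 ± 0.044 log2 per time point in treated lineages (adjusted p = 0.00304) and by 0.27 ± 0.067 in DMSO lineages (adjusted p = 0.0284). The slope was negative in all 10 lineages. The difference between the slopes was 0.041 ± 0.080 (adjusted p = 0.889). The fall lay between the early and late time points, at -1.74 ± 0.53 log2 (SD, n = 7) in treated and -2.30 ± 0.44 (n = 3) in DMSO lineages. Over time points 4 to 10 only, the slope turned to 0.0069 in treated lineages (adjusted p = 0.966) and 0.047 in DMSO lineages (adjusted p = 0.81). The treated call was lost without time point 1 (adjusted p = 0.0871), and the DMSO call without R8 (0.0635), R9 (0.19), R10 (0.1125) or time point 1 (0.178). SOX9-AS1 spans the whole of SOX9 on the opposite strand, and strand use in the counting is not stated, so their reads cannot be told apart; SOX9-AS1 itself had at most 6.24.

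PAX7 (chromosome 1, 18631006 to 18748866, plus strand, ENSG00000009709.11) was abundant in every library, with 1600.3 as its lowest value. Treated libraries had 1600.3, 4007 and 4466 as lowest, median and highest at time point 1, 1631, 3038 and 3844 at time point 4, and 1695, 2677 and 3914 at time point 8. At time point 9 they had 2109 (R1), 3443 (R4) and 3457 (R5), and at time point 10 they had 1614 (R2), 2893 (R5) and 3319 (R6). The 1600.3 was R1 at time point 1, the same library that had the highest MKX of that time point. Treated libraries spanned only 1600.3 to 5161 over the whole course.

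DMSO lineages parted late in culture. R8 had 3281, 4775, 1682, 3161, 3411, 3840.3, 2839, 3940.3 and 2513 over time points 1, 2 and 4 to 10. R9 had 5346, 4576, 1932, 2582 and 1907 at time points 1, 2, 4, 5 and 6, and then 9969.6 and 11338 at time points 8 and 9. R10 had 5198, 4023, 1971, 1797 and 2936 at time points 1, 2, 5, 6 and 8, and then 6465 and 9794 at time points 9 and 10. Those 4 late libraries were the highest PAX7 values of the series, while R8 stayed at 3940.3 or below in late culture. The parental library had 2309.

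The PAX7 slope was -0.052 ± 0.019 log2 per time point in treated lineages (adjusted p = 0.0531) and 0.069 ± 0.030 in DMSO lineages (adjusted p = 0.129), and neither passed. All 7 treated slopes were negative, and 2 of 3 DMSO slopes were positive. From time points 1 to 3 to time points 4 to 10, however, PAX7 was lower in all 10 lineages, by -0.37 ± 0.20 log2 (SD, n = 7) in treated and -0.34 ± 0.069 (n = 3) in DMSO lineages. Over time points 4 to 10 only, the DMSO slope was 0.38 (adjusted p = 0.0322). The treated slope passed without R5 (adjusted p = 0.0389), R8 (0.0268), R9 (0.0306) or the late R1 and R2 libraries (0.0463). The DMSO slope passed without R8, at 0.11 (adjusted p = 0.0296). The difference between arms of -0.12 ± 0.035 (adjusted p = 0.494) also passed without R8 (-0.16, adjusted p = 0.0476). Without the 4 late R9 and R10 libraries the DMSO slope turned to -0.16 (adjusted p = 0.0286) and the difference to 0.11 (adjusted p = 0.333), so the direction of PAX7 in DMSO rests on those libraries.

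PAX3 (chromosome 2, 222199888 to 222298996, minus strand) was present in every library. Treated libraries had 1319.8, 1904 and 2048 as lowest, median and highest at time point 1, 1194, 1517 and 1878 at time point 3, and 656 to 1811 later. DMSO libraries had 1417 to 1942 early and 758 to 1785 later, and did not repeat the late PAX7 values: R9 had 1317 and 1284 at time points 8 and 9, and R10 had 1300.4 and 1156 at time points 9 and 10.

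PAX3 fell in treated lineages by 0.087 ± 0.015 log2 per time point (adjusted p = 0.00237), in all 7 lineages. In DMSO the slope was -0.028 ± 0.023 (adjusted p = 0.407), negative in all 3. The difference, -0.058 ± 0.028, had an adjusted p of 0.538. The treated call was lost without time point 1 (adjusted p = 0.0718). PAX3 was lower in time points 4 to 10 than in 1 to 3 in all 10 lineages, by -0.58 ± 0.19 log2 in treated and -0.48 ± 0.044 in DMSO lineages. Over time points 4 to 10 only, the slopes were -0.013 (adjusted p = 0.738) and 0.10 (adjusted p = 0.0652). CCDC140 overlaps PAX3 by 850 bases on the opposite strand, with r = 0.26 between them over 73 libraries.

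TBX5 (chromosome 12, 114353931 to 114408442, minus strand) was nearly level in treated cells, with 161, 238 and 353 as lowest, median and highest of 49 libraries. DMSO libraries had 172.8 to 285 in 20 of 23 libraries. The other 3 were R9 at time point 8 (59.3) and time point 9 (56.4), and R10 at time point 10 (100.3). These 3 were the lowest TBX5 values of the series and the 3 highest PAX7 values.

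The TBX5 slope was 0.0024 ± 0.027 in treated lineages (adjusted p = 0.952) and -0.12 ± 0.042 in DMSO lineages (adjusted p = 0.0684). Their difference was 0.13 ± 0.050 (adjusted p = 0.495). Without R8 the DMSO slope passed, at -0.18 (adjusted p = 0.021). TBX5-AS1, an antisense transcript that overlaps TBX5 by 252 bases, had 1.26 and 3.45 in the same R9 libraries and 4.32 in the R10 one, against a DMSO median of 26.4. It fell in DMSO lineages by 0.30 ± 0.063 log2 per time point (adjusted p = 0.018). Reads from the shared bases cannot be told apart without strand.

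MEOX2 (chromosome 7, 15611212 to 15686812, minus strand) was near 0 throughout: its highest value was 1.02, in R8 at time point 4, and its mean was 0.0272. It fell below the minimum mean of 10 and was not tested, so 7 of the 8 genes were.

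MYH3 (chromosome 17, 10628526 to 10657309, minus strand) was at 114 in the parental library and at 16.6 to 77.7 in all others. Its treated range was 19.6 to 65.4 and its DMSO range 16.6 to 77.7, with medians of 38.0 and 37.8. Slopes were -0.025 ± 0.025 in treated lineages (adjusted p = 0.436) and -0.034 ± 0.038 in DMSO (adjusted p = 0.545), so no change was called. SCO1, a mitochondrial copper chaperone gene, lies 15164 bases away on the same strand in GENCODE, but RefSeq draws MYH3 from 10628532 to 10678417, into SCO1, which starts at 10672474. SCO1 was also highest in the parental library, at 1270.5 against 471 to 1227 elsewhere, and was the gene most like MYH3 (r = 0.75 over 73 libraries). How far MYH3 values hold SCO1 reads was not tested.

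**Figure D2:**
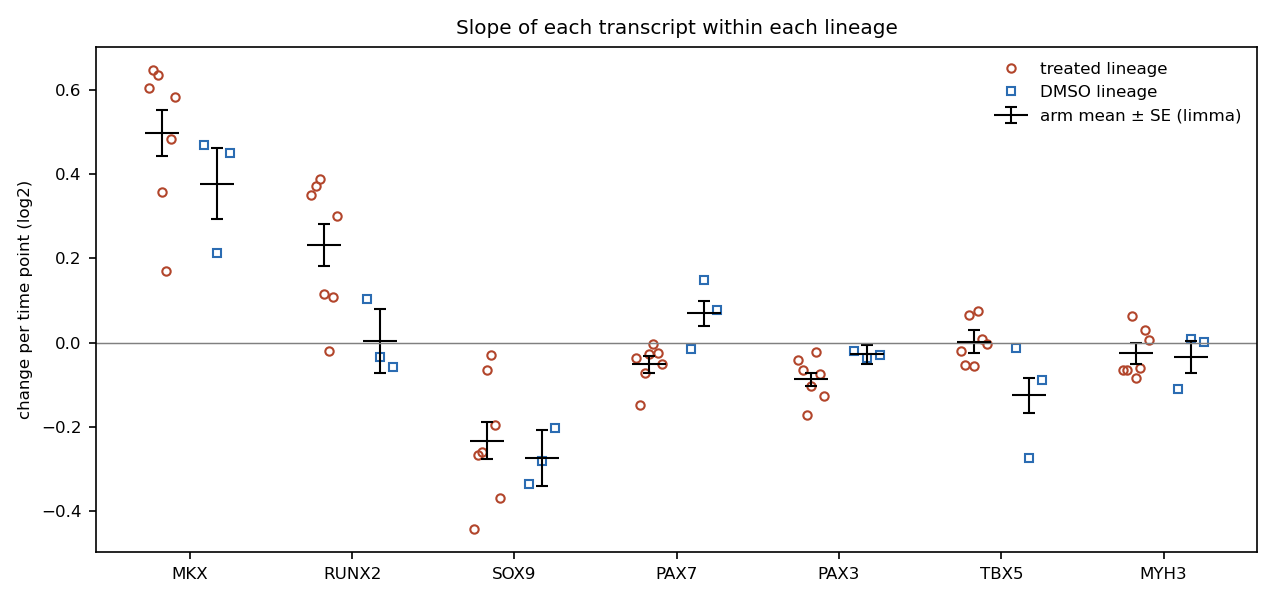
Change per time point (log2) within each lineage, for treated (red circles) and DMSO (blue squares) lineages, with the arm mean ± SE from limma in black. MKX slopes are above 0 and SOX9 slopes below 0 in all 10 lineages, while PAX7 slopes are below 0 in 7 of 7 treated lineages and above 0 in 2 of 3 DMSO lineages.

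Of the 7 genes tested, 2 rose (MKX and RUNX2) and 2 fell (SOX9 and PAX3) in treated lineages, where 16.3% of 14565 genes rose and 22.8% fell. In DMSO lineages 1 rose (MKX) and 1 fell (SOX9), where 6.11% of genes rose and 6.14% fell. No gene at all passed for the difference of the slopes (0%), although 1373 had an unadjusted p under 0.05 in limma.

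As a description of the contrast that chose the genes, each lineage was given a level adjusted for time point. MKX was 142 to 184 in the 7 treated lineages and 108.7 (R8), 69.3 (R9) and 83.5 (R10) in the DMSO lineages, with no overlap. The columns of treated libraries share 1 total and those of DMSO and parental libraries another, so the arms may have been normalized apart. With all columns brought to 1 distribution the MKX difference was 0.95. The means as deposited were 7.39 ± 0.16 (SD, n = 7) and 6.44 ± 0.32 log2 (n = 3), a difference of 0.96. Among all genes, 1.08% had every treated lineage above every DMSO lineage and 1.93% had every one below. Because MKX helped choose the genes, nothing is read from this.

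The other 6 genes overlapped between arms. PAX7 differed by -0.27 log2, which became 0.092 without the 4 late DMSO libraries. RUNX2 differed by 0.60, or 0.27 without them, TBX5 by 0.32, or 0.061 without them, and MKX by 0.77 without them. SOX9 differed by 0.27, PAX3 by -0.094 and MYH3 by -0.034. For MKX the difference was 1.27 without R8 and 0.67 without R9, and 0.76 without the late R1 and R2 libraries that held the highest values.

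**Figure D3:**
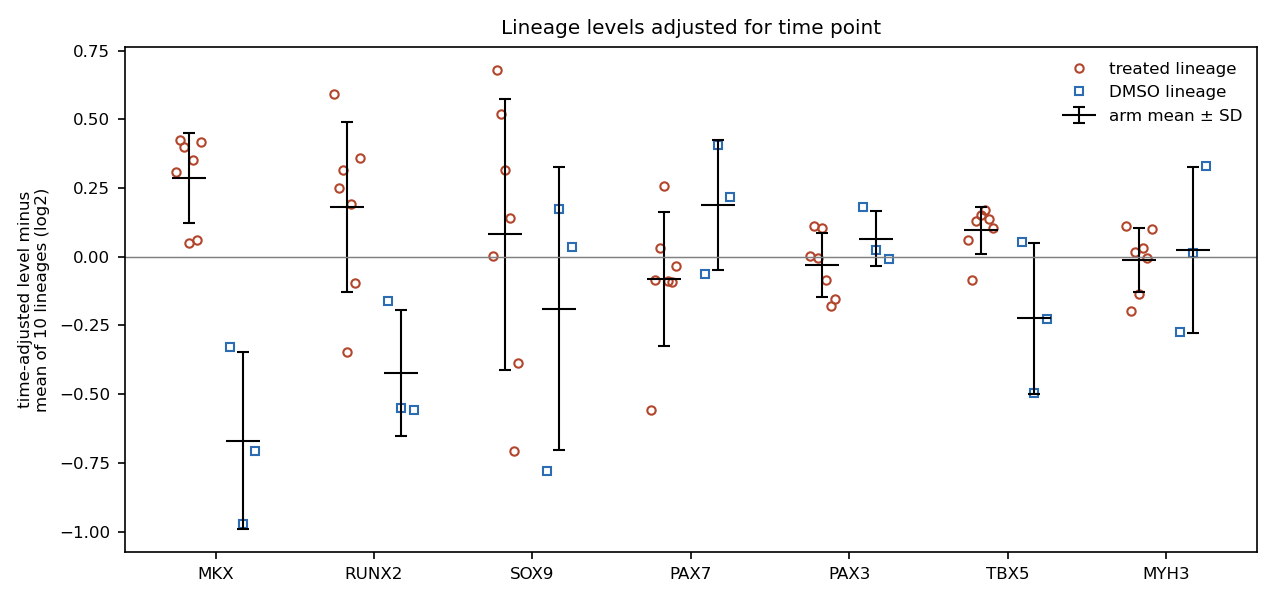
Level of each gene in each lineage after adjustment for time point, minus the mean of the 10 lineages (log2), with arm mean ± SD in black. All 7 treated lineages lie above the 3 DMSO lineages for MKX, and the arms overlap for the other 6 genes.

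The drug course was compared within treated lineages, after VDC against after EC, with lineage as a block and a linear time term. Before time point 4, treated libraries came from time points 1 and 3 only, both after VDC. Estimates for genes with an early-to-late step may hold part of that step, and this fit cannot tell it from the course. DMSO lineages had time points 1 and 2 there, so their odd-minus-even values are not a matched background. No gene passed (0% of 14565), although 2118 had an unadjusted p under 0.05. MYH3 came closest among the 7, being lower after VDC by 0.44 ± 0.11 log2 (adjusted p = 0.0761), and it passed without R5 (-0.51, adjusted p = 0.0449). Its treated medians after EC were 52.9, 38.9, 49.5 and 33.7 at time points 4, 6, 8 and 10. After VDC they were 37.1, 37.8, 31.6, 35.9 and 22.0 at time points 1, 3, 5, 7 and 9, so the medians of the courses overlapped.

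The other 6 genes did not pass either. After VDC relative to EC, MKX was -0.87 ± 0.37 (adjusted p = 0.26), RUNX2 -0.55 ± 0.30 (0.392), SOX9 0.64 ± 0.26 (0.243), PAX7 0.30 ± 0.13 (0.243), PAX3 0.23 ± 0.11 (0.292) and TBX5 0.061 ± 0.080 (0.755). DMSO lineages, which saw no drug, had odd-minus-even estimates of -0.15 ± 0.17 for MYH3, -0.54 ± 0.51 for MKX, -0.15 ± 0.40 for RUNX2, -0.018 ± 0.36 for SOX9, 0.37 ± 0.23 for PAX7, -0.0098 ± 0.15 for PAX3 and 0.039 ± 0.15 for TBX5. The difference of this effect between arms passed for no gene (0%, with 685 at an unadjusted p under 0.05), MYH3 being at -0.29 ± 0.21 (adjusted p = 0.914) and MKX at -0.33 ± 0.64 (adjusted p = 0.964).

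**Figure D4:**
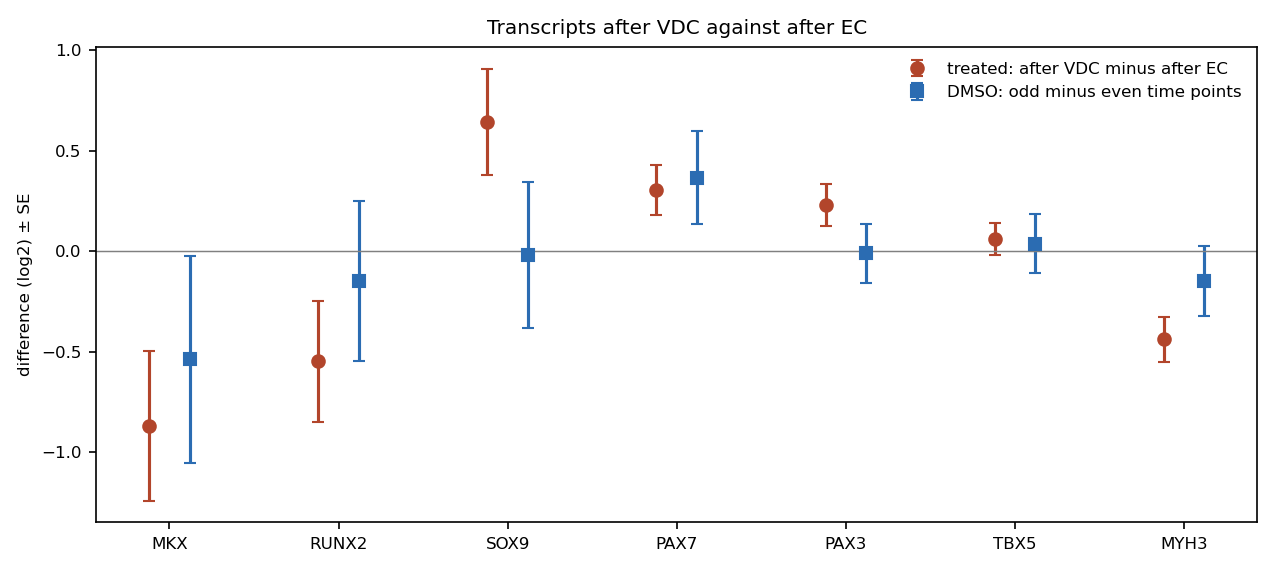
Estimated difference (log2, ± SE) of each gene after VDC against after EC in treated lineages (red circles) and between odd and even time points in DMSO lineages (blue squares). MYH3 has the interval farthest from 0 relative to its SE, at -0.44 ± 0.11, and no gene passes the threshold.

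Genes of the same branches were counted from lists that were chosen with earlier results known. The counts are to be read against the 16.3% of all genes that rose and 22.8% that fell in treated lineages. In DMSO lineages these shares were 6.11% and 6.14%. The minimum mean of 10 was taken over all libraries, including those of the slopes. A gene near 0 in many libraries could thus reach it through its high libraries. How far this filter shaped the list counts was not tested. Of 26 myogenic regulators and contractile genes, 9 reached the minimum mean of 10, and 7 of those rose and none fell in treated lineages, where 16.3% of all genes rose. Examples were TNNT1, the slow troponin T, at 0.36 ± 0.053 log2 per time point, and MYL4, an embryonic myosin light chain, at 0.32 ± 0.088. Their DMSO slopes were 0.36 and 0.098, and 2 of the 9 rose in DMSO, where 6.11% of all genes did. The median slope of the 9 was 0.22 in treated lineages against -0.0076 for all genes tested. MYL4 and TNNI1, which also rose, had means of only 17.9 and 18.6. Both had 4.66 in the parental library and 0.027 at the lowest in treated libraries.

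Of 13 tendon genes, 6 rose and 1 fell in treated lineages, against 16.3% and 22.8% of all genes. COL1A1, the main tendon and bone collagen, rose by 0.39 ± 0.057, TGFB2, a growth factor of tendon formation, by 0.35 ± 0.060, and EGR1, an early response factor active in tendon, by 0.28 ± 0.072, with DMSO slopes of 0.22, 0.15 and 0.070 that did not pass. In DMSO none of the 13 rose and 2 fell, against 6.11% and 6.14%. COL1A1 is also a fibroblast marker, and the summed fibroblast markers reached 24212 in treated and 11326 in DMSO libraries. COL1A1 alone reached 22349 and 9355, so the sum is no separate measure of fibroblast genes. The part of fibroblast genes in these changes was not tested. The tendon genes named here had the largest rises. TGFB3 was the one that fell, by 0.094 (limma adjusted p = 0.00847). SCX, FMOD and DCN did not pass, at -0.025, -0.019 and -0.20. The median slope of the 13 was 0.016.

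Of 10 cartilage genes, 4 rose and 1 fell in treated lineages, against 16.3% and 22.8% of all genes. TRPS1, a GATA-type repressor of cartilage growth, rose by 0.60 ± 0.067, COL9A2, a cartilage collagen, by 0.28 ± 0.057 and PTH1R, the parathyroid hormone receptor, by 0.24 ± 0.068, of which PTH1R also rose in DMSO, by 0.52. In DMSO 1 of the 10 rose, against 6.11% of all genes. Bone genes rose in 6 of 12 cases, against the same 16.3%, and none fell. Those that rose included RUNX1 at 0.26 ± 0.090, the matrix gene SPARC at 0.24 ± 0.036 and the mineral regulator PHEX at 0.23 ± 0.066. RUNX1, PHEX and PTH1R lay near the minimum mean of 10, with means of 13.0, 10.9 and 14.6. PTH1R ran from 0.0035 to 41.1 in treated and from 0.011 to 150 in DMSO libraries. RUNX1 ran from 0.0035 to 34.2 in treated and from 0.017 to 280 in DMSO libraries. RUNX1 had a slope of 0.66 and SPARC of 0.20 in DMSO, where both rose, and 4 of the 12 rose in all, against 6.11%. The median treated slopes were 0.0015 for cartilage and 0.084 for bone genes.

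Of 13 somite and limb genes, 2 rose and 4 fell in treated lineages, near the 16.3% and 22.8% of all genes, and 1 fell in DMSO, against 6.14%. SALL4, a zinc finger factor of limb and stem cells, fell by 0.25 ± 0.058, MESP2, a somite factor, fell by 0.11 ± 0.037, and TBX2, a T-box repressor, rose by 0.24 ± 0.072. Of 6 paralogues that reached the minimum mean, 4 rose and none fell in treated lineages and 3 rose in DMSO, against 16.3% and 6.11% of all genes rising. PAX6, the eye and neural paired-box factor, rose by 0.44 ± 0.039 in treated and 0.50 ± 0.060 in DMSO lineages. PAX5, a B cell factor, rose by 0.32 ± 0.060 and 0.47 ± 0.092, and IRX3, of the homeobox class of MKX, by 0.23 ± 0.041 and 0.39 ± 0.062. So the paired-box genes PAX6 and PAX5 rose in both arms while PAX3 fell in treated lineages. PAX9, another paired-box gene, also fell there, by 0.10 (limma adjusted p = 0.0020), with a DMSO slope of -0.084 (adjusted p = 0.0625). PAX1 was not called in treated lineages (0.044, adjusted p = 0.160). Slopes of EWSR1, FLI1 and NR0B1, a direct fusion target, were 0.0057, 0.0084 and -0.037 in treated lineages and did not pass (adjusted p = 0.551, 0.333 and 0.162). Of the 9 Ewing sarcoma markers tested, 1 rose and 5 fell in treated lineages, against 16.3% and 22.8% of all genes. Those that fell were CCK (-0.11), FCGRT (-0.086), STEAP1 (-0.080), BCL11B (-0.052) and PRKCB (-0.028), and GLI1 rose (0.15). In DMSO 3 of them fell, against 6.14% of all genes, namely STEAP1 (-0.15), CCK (-0.10) and BCL11B (-0.098). Of the 6 fibroblast markers, COL1A1 and THY1 (0.19) rose in treated lineages, against 16.3%, and none did in DMSO, against 6.11%.

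The genes whose levels ran closest to each member were found by Pearson r over the 73 libraries, which share lineages and culture time, and are given without p. MKX was most like MAP1B (0.93), CAVIN1 (0.92), PAM (0.91), P4HA2 (0.91) and GPRC5A (0.90). PAX7 was most like UNC5A (0.88), NUDT4 (0.84), JARID2 (0.83), GRM2 (0.83) and NKX2-2 (0.82), the last a known Ewing sarcoma marker. RUNX2 ran with FHL1 (0.87), FSTL3 (0.84) and CYTH3 (0.84), SOX9 with ZMAT1 (0.83), TBX5 with LRRC17 (0.85) and PAX3 with ZFHX2 (0.82).

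Among the members, MKX went with RUNX2 (r = 0.74) and against SOX9 (-0.76), PAX3 (-0.71) and PAX7 (-0.49) over 73 libraries. After the mean of each arm and time point was taken out, these became 0.72, -0.54, -0.48 and -0.59 over 71 libraries. PAX7 and TBX5 were at -0.84 within the 22 DMSO libraries with a partner at the time point and at 0.33 within the 49 treated libraries. Those 22 include R9 at time points 8 and 9 and R10 at time point 10, with PAX7 at 9794 or more and TBX5 at 100.3 or less. How far the -0.84 rests on them was not tested. Each DMSO group held only 2 or 3 libraries, so taking out the mean also moves the partners of an extreme library. PAX7 and PAX3 were at 0.61 in treated and -0.21 in DMSO libraries. Values of 1 lineage share a culture, so these are descriptions.

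**Figure D5:**
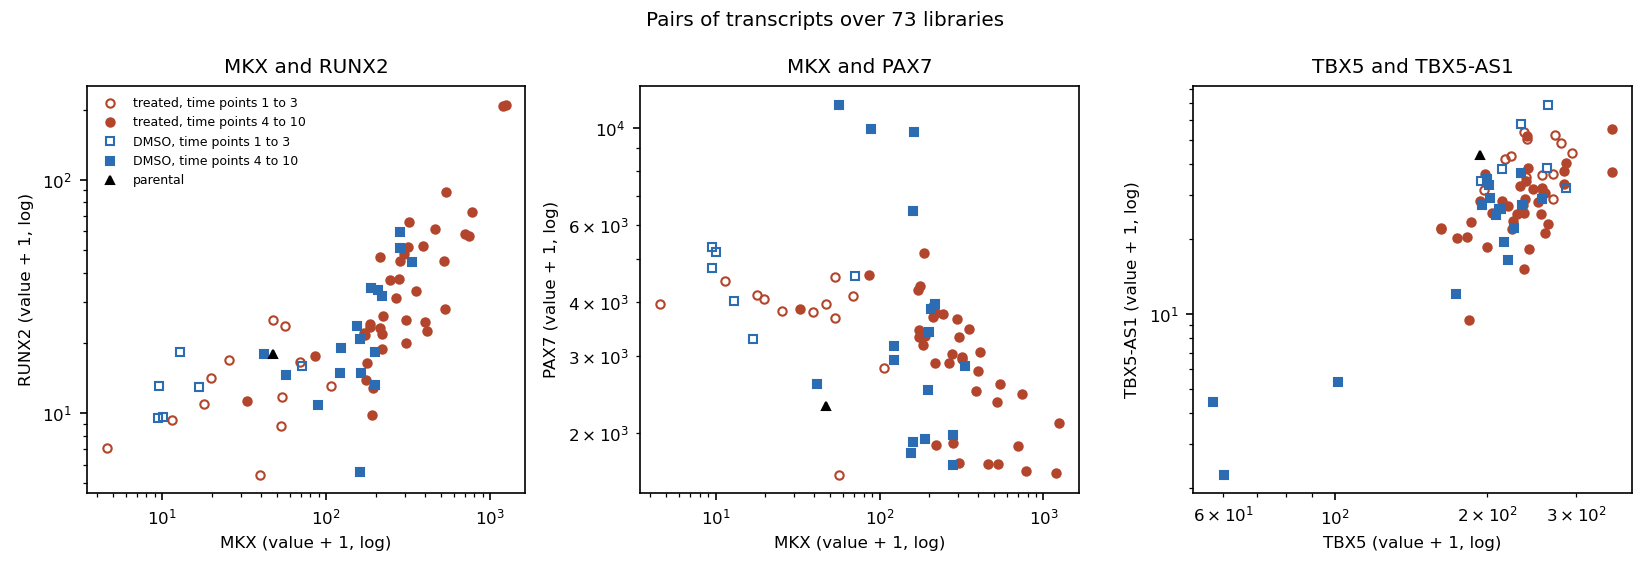
Values plus 1 (log axes) of MKX against RUNX2, MKX against PAX7, and TBX5 against TBX5-AS1 in each of 73 libraries, with treated libraries as red circles, DMSO as blue squares and the parental as a black triangle, and time points 1 to 3 open. The 2 libraries with MKX above 1187 have RUNX2 above 205, and the 3 DMSO libraries with the lowest TBX5 have the lowest TBX5-AS1.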

How the data were processed

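RNA sequencing of 73 CHLA-9 libraries was measured. STAR did the alignment and counting per the labels' protocols, and the submitters' processing notes name STAR, featureCounts and GRCh38, without versions. The authors deposited 1 table, a signal of quantile-normalized counts, whose treated columns total 13583520 and whose DMSO and parental columns total 13582508. How it was normalized and whether counting used strand is not given in the sources used here. The unequal totals leave it possible that the arms were normalized apart, which bears on every level set across arms. Depth is unknown, so no counting interval is given.

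The 8 genes and all lists were chosen with earlier results of these data known. A pseudocount of 1 was added before log2, and genes below a mean value of 10 were left out, which left 14565. Slopes were fitted within each of 10 lineages and tested in 1 fit with limma 3.58.1 (trend) in R 4.3.3, and VDC against EC in the 49 treated libraries with a replicate block for lineage plus linear time. Tests are two-sided with Benjamini-Hochberg adjustment over all 14565 genes and a threshold of 0.05. The arms were compared by lineage levels adjusted for time point, without a test.

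A replicate number is 1 culture followed over time, per the labels. Deviations from the arm and time point mean correlated at 0.081 over 219 pairs of the same lineage and at -0.015 over 1050 other pairs. No column was identical to another. The scripts were tested on simulated data. Named list genes are up to 3 per list past the threshold in the treated slope, by largest absolute value, of which 1 is not reported here. Alternatives were other pseudocounts, no filter, 1 common distribution, omitted lineages, time points and late libraries, and no block. Positions are from GENCODE v29 (GRCh38), promoters from RefSeq, and figures from matplotlib 3.10.9 in Python 3.11.15.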

Additional observations from a re-analysis of the deposited data

Results flagged for a closer look

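Each of the 7 genes was tested for a library far from the others in every group of 4 to 10 libraries of 1 arm and time point. Only treated groups were that large, so DMSO libraries were not tested. Treated time points 9 and 10 had 3 libraries each and were not tested either. They hold the highest MKX values, 1239 (R1) and 1187 (R2), and the highest RUNX2 values, 209 (R1) and 206 (R2). Of the 49 tests made, 4 found such a library, all of them lineage R1. Chance gives about 1 in 20 tests, but the genes share the same libraries, so the tests are not independent. MKX at treated time point 4 was 31.9 in R1 against 212 to 776 in the other 6 lineages. PAX7 at treated time point 1 was 1600.3 in R1 against 3801 to 4466 in the others, and PAX3 in the same library was 1319.8 against 1813 to 2048. MYH3 at treated time point 6 was 65.3 in R1 against 36.7 to 43.2.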

How the results depend on the processing

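Over time points 4 to 10 only, chosen after the data were seen, the count of called genes was 93 in treated and 938 in DMSO lineages, against 5693 and 1785 over all time points. There the slopes turned to 0.0069 for treated SOX9 and, in DMSO, to -0.090 for MKX, 0.10 for PAX3, 0.047 for SOX9 and -0.28 for RUNX2. The SOX9 slope difference turned to -0.040, and DMSO PAX7 passed at 0.38 (adjusted p = 0.0322). Without time point 1 the counts were 1183 and 9, the DMSO slopes of PAX3 and RUNX2 turned to 0.014 and -0.077, and the PAX7 difference of the odd-minus-even effect between arms (the parity difference below) turned to 0.15.

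Without the 4 late DMSO libraries the DMSO count was 2769. The DMSO slope of PAX7 turned to -0.16, the slope differences of MKX, PAX7 and MYH3 to -0.063, 0.11 and -0.015, and the parity differences of PAX7 and TBX5 to 0.059 and -0.063. With no filter on low values 427 genes passed in DMSO and 1 for the slope difference, and MKX (adjusted p = 0.0758) and SOX9 (0.0896) lost their DMSO calls.

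For VDC against EC the count was 0, but 6 with a pseudocount of 5, 50 without the late R1 and R2 libraries and 1 over time points 4 to 8. There the parity differences of MKX and MYH3 turned to 0.21 and 0.31. With no replicate block 41 genes passed and the parity difference of TBX5 was -0.000115, and no gene of the 7 changed its call.

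Leaving out 1 lineage at a time gave 0 to 164 genes for VDC against EC, 37 (without R10) to 2818 (without R8) for the DMSO slope and 0 to 212 (without R8) for the slope difference. The slope of TBX5 in treated lineages ran from -0.0097 to 0.012, the DMSO slopes of RUNX2 from -0.047 to 0.035 and of MYH3 from -0.055 to 0.0051, and the MYH3 slope difference from -0.030 to 0.030. Parity differences ran from -0.13 to 0.062 for PAX7, -0.075 to 0.082 for TBX5 and -1.07 to 0.14 for MKX. With all columns brought to 1 distribution no call of the 7 genes changed. The causes were not tested. Without depth, the precision of low values such as RUNX2 is unknown.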
